A study of Homo sapiens with 8 samples.

Results

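MEL202 is a human uveal melanoma cell line that carries a mutation in SF3B1, and the comparison described here asked what followed in its transcripts when the mutant SF3B1 protein was withdrawn for 2 days. The line (DD-mut-SF3B1, here the mutant degron line) carries a destabilising domain (DD) on the mutant SF3B1 allele and leaves the wildtype allele untagged. Shld is a small ligand that shields the domain, so cells kept with Shld hold the tagged protein and cells without Shld are expected to degrade it. The 2 libraries of this line, 1 with and 1 without Shld, were taken from 8 libraries in all, and the 8601 named genes whose mean over the 8 libraries reached 5 were described, of 32087 loci in the deposited table. The other 6 libraries, also 1 with and 1 without Shld each, came from parental MEL202 cells with no degron, from mut-SF3B1 KO cells, in which the mutant allele is knocked out (here knockout cells), and from a line with the domain on wildtype SF3B1 (DD-wt-SF3B1, here wildtype degron cells). The labels give 2 days for the degron and knockout lines and no time for parental cells. The column names give 4 days without Shld for the knockout and parental libraries, and they also name a degron on wildtype SF3B1 in knockout cells. Nothing in the sources used here says whether a line is 1 clone, and SF3B1 protein was not measured.

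SF3B1 is the large scaffold subunit of SF3b, the part of the U2 small nuclear ribonucleoprotein that holds the branch point adenosine of an intron. Hotspot mutations, found in uveal melanoma, myelodysplastic syndromes and chronic lymphocytic leukaemia, let the spliceosome use another branch point and a cryptic 3′ splice site a short way upstream of the usual one. Some of the resulting transcripts carry a premature stop codon and are removed by nonsense-mediated decay, which lowers the level of the gene. Withdrawal of the mutant protein leaves the wildtype copy to serve the cell.

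A change of splice site leaves a short extra stretch of sequence in the transcript, and the stretches at annotated sites of this kind are shown because they mark the genes in which such a choice exists. In GENCODE (GRCh38), 1111 of the 7824 tested genes with an annotation (14.2%) have an acceptor that lies 10 to 30 bases upstream of another acceptor joined to the same donor. Among 27 measured genes of a list with a reported splicing fault under SF3B1 mutation the count was 17 (63.0%). Those genes were listed for their splicing, so a high share is built in and is no measure for the sets that follow. Among the 15 largest higher differences described below it was 4 of 14 annotated genes (28.6%), and among the 15 largest lower ones 2 of 14 (14.3%). Each sequence below runs 5′ to 3′ on the gene's strand from the base after the upstream acceptor to the downstream acceptor, whose AG is in capitals.
CRNDE: ttctcttgtAG
ELP2: cttttaaaagcagtgcatcttcaAG
PHGDH: ggctggcacAG
The CRNDE stretch of 11 bases lies at chr16:54920328-54920338 (minus strand) and the ELP2 stretch of 25 bases at chr18:36138270-36138294 (plus strand). The PHGDH stretch of 11 bases lies at chr1:119721256-119721266 (plus strand). The deposited table gives 1 value per locus and does not show which acceptor was used, so these sequences locate the choice and say nothing of its use in these cells.

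The values were FPKM-type levels (fragments per length of transcript and size of library) that the authors had rescaled so that the 75th percentile was 10 in every library. Their sums ran from 762679 to 961994, with 814936 with and 827303 without Shld in mutant degron cells, and the absolute depth is unknown. Low values gave 1.48 times as many fragments per unit with Shld and 1.05 times without Shld in mutant degron cells, relative to the parental library with Shld, so the library with Shld was the deeper. Melanocyte markers were high in this line: MITF stood at 153 with and 159 without Shld, SOX10 at 262 and 273, and PMEL at 2854 and 3643. The T cell marker CD3E, the myeloid marker TYROBP, the endothelial marker CDH5 and the keratinocyte markers KRT5 and KRT14 were listed at 0 in both of its libraries. The summed level of the immune list was 764 and 798. In it CD68, a lysosomal protein also made outside the immune system, stood at 763 and 797, and the immune marker PTPRC at 1.18 and 1.22. The summed level of the fibroblast list was 95.8 and 116, with DCN at 0 in both, and that of the endothelial and epithelial list was 16.8 and 20.5, of which BEST1 was 14.8 and 18.7, while PECAM1, VWF and EPCAM were each below 0.1. The part of these lists in any result was not tested.

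The target gene was read first. SF3B1 stood at 248 with and 252 without Shld in mutant degron cells, a difference of +0.03 ± 0.21 (log2, standard error of the limma fit). It stood at 266 and 240 in parental cells, 158 and 138 in knockout cells and 188 and 201 in wildtype degron cells. The degron acts on protein, so this RNA does not check the withdrawal.

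Differences are given as log2(value + 1) without Shld less with Shld, a scale that understates the change of low genes. With 1 library a side there is no replicate check, and the parental pair, which has no degron, gives the background. A difference of at least 0.5 in size was found for 49 genes in the mutant degron pair (0.57%), 39 higher (0.453%) and 10 lower (0.116%). The same size was reached by 169 genes in the parental pair (1.96%), with 29 higher (0.337%) and 140 lower (1.63%). The wildtype degron pair had 121 such genes (1.41%) and the knockout pair 551 (6.41%), 208 higher (2.42%) and 343 lower (3.99%). Withdrawal of mutant SF3B1 was thus accompanied by fewer differences of this size than the parental pair showed without a degron. The standard deviation of the differences over genes was 0.15 in the mutant degron pair and 0.20 in the parental pair, with 0.18 for wildtype degron and 0.26 for knockout cells. At 2-fold or more the counts were 5, 5, 6 and 29 genes in that order. Just inside the size of 0.5 stood KIAA0196, USP28 and STK32A (each +0.50), and just outside it HACL1, ZNF558 and SHKBP1 (each +0.50 when rounded).

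**Figure D1:**
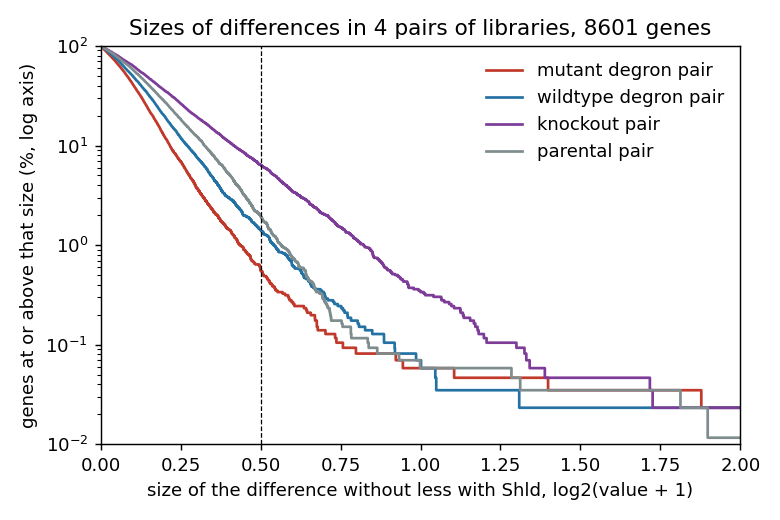
Share of the 8601 genes (vertical axis, percent, log scale) whose difference without less with Shld is at least the size on the horizontal axis (log2(value + 1)), with 1 line for each pair of libraries and a dashed line at 0.5. At 0.5 the mutant degron pair has 0.57% of genes, the lowest of the 4 pairs, and the knockout pair 6.41%.

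Transcript length moved with these differences. Over 7824 genes with a length, the Spearman correlation of the difference with transcript length was -0.24 in the mutant degron pair, +0.23 in the parental pair, +0.13 in the knockout pair and -0.02 in the wildtype degron pair. The genes share their libraries, so these are descriptions. The 15 largest higher differences had a median length of 3542 bases and the 15 largest lower ones 5136 bases, against 3679 bases for all genes. The part of length and of the unequal depth in the results was not tested.

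In limma, with the spread taken from the parental pair, 4 of 8601 genes (0.0465%) passed a Benjamini-Hochberg adjusted p of 0.05, 3 higher (0.0349%) and 1 lower (0.0116%). Before adjustment 146 genes had a p below 0.05, 113 higher and 33 lower. LRFN1, which encodes a synaptic adhesion molecule, rose from 3.82 to 16.7, by 1.88 ± 0.26 (limma, adjusted p = 0.00066; 0.00023 to 1 over its alternatives, past in 4 of 10). It stood at 5.23 and 10.9 in parental cells, 9.25 and 19.3 in wildtype degron cells and 8.56 and 6.37 in knockout cells, so it was higher without Shld in 3 of the 4 pairs, the parental pair included. PCNA-AS1, a transcript antisense to the replication clamp gene PCNA, was listed at 0.0012 with and 8.22 without Shld (+3.20 ± 0.44; limma, adjusted p = 0.00066; 5.9e-05 to 1 over its alternatives, past in 3 of 9), and was higher without Shld in all 4 pairs. Strand use in counting is not given in the sources used here, so its reads and those of PCNA cannot be told apart. HLA-C, a class I antigen-presenting molecule whose reads can be shared with other HLA genes, was listed at 2.3e-05 with and 17.5 without Shld (+4.21 ± 0.62; limma, adjusted p = 0.0012; 5.9e-05 to 1, past in 2 of 10), and at 4.7e-23 and 6.48 in parental cells. LOC390660 fell from 10.9 to 3.50 (-1.40 ± 0.21; limma, adjusted p = 0.0014; 5.9e-05 to 1, past in 5 of 9), and was listed at 0 in both parental libraries, so that pair shows no spread of its own for it. Each of the 3 genes that rose was also higher without Shld in the parental pair. The fit had 23.6 prior degrees of freedom, pooled over genes, and 1 from a gene's own parental pair. The ± values and adjusted p thus rest mostly on the spread of other genes. For LRFN1 and HLA-C they do not show the gene's own parental difference.

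Among genes with a value of at least 1 in all 8 libraries and a parental difference less than 0.5 times as large, the largest higher difference after LRFN1 was that of PHGDH, the first enzyme of serine synthesis from glucose. PHGDH stood at 46.2 with and 88.5 without Shld in mutant degron cells, a difference of +0.92 ± 0.19 (limma, adjusted p = 0.091). Parental cells had 79.7 and 95.7, wildtype degron cells 139 and 75.03, and the knockout line 185 and 125. The mutant degron library with Shld was the lowest of the 8, and its library without Shld lay within the range of the others. The adjusted p for PHGDH ran from 0.0073 to 1 over the alternatives, and passed in 1 of 11, the fit of genes with a mean of at least 20. In that fit PHGDH rose, and SEC24C and CRNDE fell, while no other gene passed. Its prior degrees of freedom were infinite, so a gene's own parental pair had no weight beside the spread fitted over genes. PHGDH and CRNDE differed the same way in the parental pair, and SEC24C the other way.

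RECQL, a DNA helicase of the RecQ family, stood at 13.5 with and 22.1 without Shld in mutant degron cells (+0.68 ± 0.17; limma, adjusted p = 0.49). It was at 31.0 and 31.9 in knockout cells, at 8.77 and 8.03 in parental cells, and at 11.7 and 7.67 in wildtype degron cells. MUT, the mitochondrial methylmalonyl-CoA mutase, stood at 11.2 and 18.3 in mutant degron cells (+0.66 ± 0.17). Its levels were 20.7 and 17.3 in knockout cells, 8.88 and 9.23 in parental cells and 11.4 and 7.61 in wildtype degron cells. Without Shld MUT in mutant degron cells therefore lay between both knockout values, and with Shld nearer to the parental ones. ELP2, a subunit of the Elongator complex that modifies transfer RNA, stood at 32.5 and 47.4 in mutant degron cells (+0.53) and at 59.0 and 52.97 in knockout cells. Parental cells had 32.5 and 29.5 of ELP2 and wildtype degron cells 30.5 and 22.1. DZIP3, a ubiquitin ligase, stood at 4.70 and 7.58 (+0.59), and at 9.17 and 8.48 in knockout cells. None of these 4 genes passed the test of withdrawal alone.

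**Figure D2:**
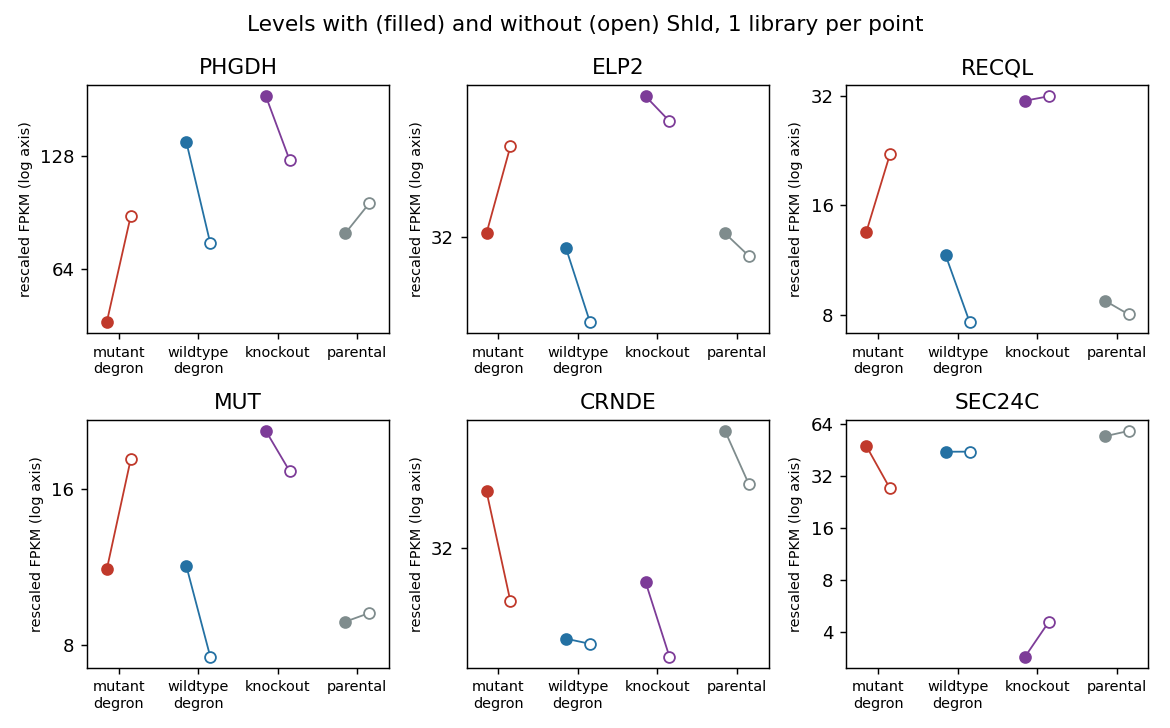
Rescaled FPKM (log axis) of 6 genes in the 4 lines, with filled points for libraries with Shld and open points for libraries without, 1 library per point. PHGDH, ELP2, RECQL and MUT are higher without Shld in mutant degron cells and reach their highest values in knockout cells. CRNDE and SEC24C are lower without Shld in mutant degron cells and low in knockout cells, and CRNDE is also low in wildtype degron cells.

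WDR34, a dynein intermediate chain that works in cilia, stood at 44.4 with and 70.1 without Shld in mutant degron cells (+0.65), and at 45.2 and 46.3 in parental cells. In knockout cells it stood at 79.1 and 55.5, with the level after withdrawal between those values. HSD17B8, a mitochondrial fatty acid synthesis enzyme, had another order and stood at 9.06 and 13.8 (+0.55), below its parental values of 18.5 and 16.1 in both states. DBP, a clock output transcription factor, stood at 3.34 and 5.34 (+0.55), against 10.2 and 9.56 in parental cells. CEMP1 (+0.64), MGC16025 (+0.59), ABHD11-AS1 (+0.55), TRAPPC6A, a vesicle tethering subunit (+0.54), and ZNF76 (+0.53) were also in the set. In 8 of the 15 genes the mutant degron library with Shld was the lowest of all 8 libraries (10.5% of all genes). In 0 of 15 was the library without Shld the highest (4.73% of all genes), so all 15 lay below the highest library of the other lines. The values of these libraries chose the genes, so nothing is read from those counts.

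On the lower side, SEC24C, which encodes a cargo-binding subunit of the COPII coat of vesicles leaving the endoplasmic reticulum, stood at 48.0 with and 27.2 without Shld (-0.80 ± 0.17; limma, adjusted p = 0.091). It stood at 54.4 and 58.4 in parental cells and 44.3 and 44.3 in wildtype degron cells, and at 2.90 and 4.62 in knockout cells. SEC24C thus had its lowest levels in both knockout libraries and its next lowest in mutant degron cells without Shld. CRNDE, a long noncoding RNA, stood at 42.0 and 24.9 (-0.73 ± 0.18; limma, adjusted p = 0.47). Parental cells had 56.1 and 43.5 of CRNDE, the knockout line 27.3 and 19.1, and wildtype degron cells 20.8 and 20.3. CCL28, an epithelial chemokine, stood at 27.5 and 19.3 (-0.49), at 48.1 and 50.1 in parental cells and at 13.8 and 8.90 in knockout cells. For SEC24C, CRNDE and CCL28 the library without Shld lay between the parental and the knockout values, or within the latter. Of the 15 largest lower genes 6 had both knockout libraries below both parental ones, against 35.8% of all genes. In 7 of the 15 both lay above, against 32.4% of all genes. By these counts the set as a whole showed no lean toward knockout levels.

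TRAF3IP2-AS1 stood at 6.75 and 3.85 (-0.68), and GIN1 at 7.43 and 4.30 (-0.67). GLI2, the transcription factor at the end of hedgehog signalling, stood at 10.9 and 7.17 in mutant degron cells (-0.54), above parental values of 3.36 and 3.04 in both states. It stood at 2.67 and 6.58 in wildtype degron cells. The set also held AHNAK, a giant membrane scaffold (16.9 and 12.1), DYNC1H1, the dynein heavy chain (51.7 and 38.1), FAT1, a giant cadherin (31.9 and 23.5), and MAP1B, a microtubule-associated protein (6.15 and 4.35). The differences of these 4 ran from -0.45 to -0.42, against +0.05 to +0.12 in the parental pair. With the length correction they were -0.31 for AHNAK, -0.29 for DYNC1H1, -0.29 for FAT1 and -0.28 for MAP1B. LOC285540 (-0.50), TEX15 (-0.47), CCDC149 (-0.46), C6orf120 (-0.44) and RDH10, a retinol dehydrogenase (-0.42), made up the rest. DMD, the dystrophin gene, was lower by more, at 12.3 and 5.91 (-0.94), and was left out of the 15 because it was also lower in parental cells (-0.53).

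**Figure D3:**
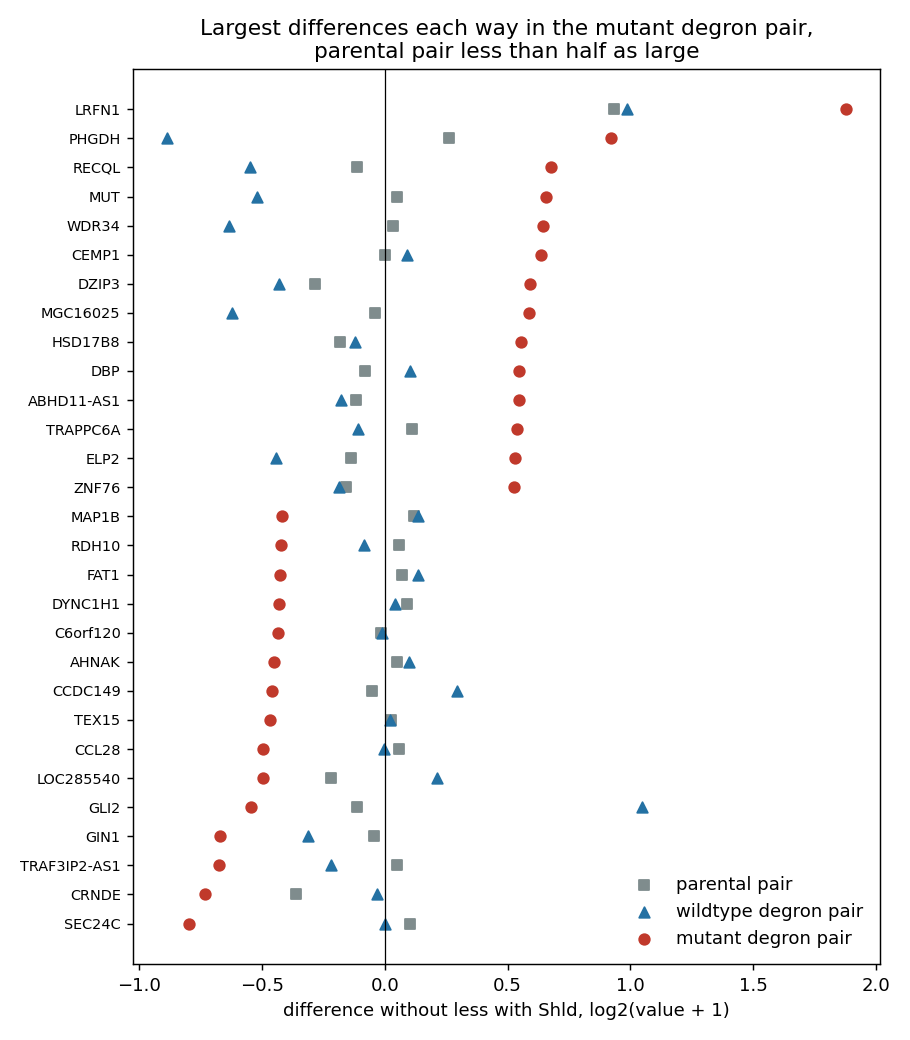
Differences without less with Shld (log2(value + 1)) of 14 of the 15 largest higher and all 15 largest lower genes in the mutant degron pair (circles), beside the same genes in the parental pair (squares) and the wildtype degron pair (triangles). The circles were used to choose the genes; 11 of the 14 higher genes plotted lie below 0 in the wildtype degron pair.

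The wildtype degron pair shares no library with the mutant degron pair, so it was set beside it. Of the 15 largest higher genes, 12 (80.0%) had a difference below 0 in the wildtype degron pair, against 46.1% of all genes. There 6 of them were lower by at least 0.5, as were 86 of all 8601 genes (1%). The 36 genes that were higher by at least 0.5 with a value of at least 1 in all libraries included 30 (83.3%) below 0 in the wildtype degron pair, 15 of them by at least 0.5. For the 15 largest lower genes the count below 0 was 6 (40%), and 0 of them were lower there by at least 0.5. With a share of 1% over all genes, nothing is read from that 0. The difference between both lines' responses was tested in limma. It passed for 21 genes (0.244%), 17 higher and 4 lower in mutant degron cells.

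Of the 15 largest higher genes, 6 passed the test of the difference between lines (0.244% of all genes), among them PHGDH, RECQL, MUT, WDR34 and MGC16025. The mutant degron difference that chose the 15 is one side of that contrast, so nothing is read from the count. PHGDH differed by +1.81 ± 0.27 (limma, adjusted p = 0.0017) and RECQL by +1.22 ± 0.24 (limma, adjusted p = 0.020). The other genes higher in this contrast included HACL1, a peroxisomal lyase (7.39 and 10.9 in mutant degron cells, 6.24 and 3.14 in wildtype degron cells), and SMARCA1, an ISWI chromatin remodeller (7.99 and 11.4, against 18.4 and 11.5). They also included RTF1, a subunit of the PAF1 transcription elongation complex (18.4 and 25.4, against 20.1 and 12.4), and HIST1H1C, a linker histone (33.9 and 47.5, against 53.1 and 20.8). In HACL1, SMARCA1, RTF1, HIST1H1C and NSUN4 the larger part of the contrast lay in wildtype degron cells. The same held for GLI2 and RFTN1, which were lower in the contrast. NSUN4 was listed at 6.27 and 0.000129 in wildtype degron cells, while it stood at 6.87 and 6.77 in mutant degron cells. RDX, HYI, KIAA0196, CPNE7, LINC00263 and HLA-C were also among the 17, and DMD, GLI2, LOC390660 and RFTN1 were the 4 lower. With quantile normalization, with median scaling and with the length correction 3 genes passed, in each case HIST1H1C, NSUN4 and PHGDH.

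Knockout of the mutant allele removes the protein for good, and the knockout and parental libraries share no library with the mutant degron pair. Differences of knockout less parental cells used the mean of both libraries of each, with and without Shld. The column names also give knockout cells a degron on wildtype SF3B1, so their library without Shld may hold less wildtype protein. The part of that in these differences was not tested. Of the 17 genes higher in the contrast between the degron lines, 13 stood at least 0.5 higher in knockout cells than in parental cells and 2 at least 0.5 lower. Of the 4 genes lower in that contrast, 3 stood at least 0.5 higher in knockout cells and 1 at least 0.5 lower. Genes higher in knockout cells were thus the more numerous in both directions. Parental values also enter the test as its spread, so nothing is read from the 13 or the 3. Over all genes 10.3% stood at least 0.5 higher in knockout cells and 12.2% at least 0.5 lower. Of the 36 genes higher by at least 0.5 on withdrawal with a value of at least 1 in all libraries, 15 (41.7%) stood at least 0.5 higher in knockout cells than in parental cells, against 10.3% of all genes, and 8 (22.2%) at least 0.5 lower, against 12.2%. Their median difference between knockout and parental cells was +0.31, against -0.03 for all genes. Of the 9 genes lower on withdrawal by the same rule, 5 (55.6%) stood at least 0.5 lower in knockout cells. The counts on the same side as the withdrawal difference and on the opposite side were thus 15 and 8 for the higher genes, and 5 and 1 for the lower ones. These counts were not tested, and for the 36 higher genes both sides exceed the shares over all genes. The 9 lower genes had a median of -0.11 in the parental pair, a drop that the rule for the 15 limits. Of the 15 largest lower genes 5 stood at least 0.5 lower and 5 at least 0.5 higher in knockout cells, with a median of +0.20. The 15 largest higher genes had 7 at least 0.5 higher and 2 at least 0.5 lower, with a median of +0.24. LMAN1, a cargo receptor for glycoproteins, stood at 28.2 and 42.4 in mutant degron cells and at 60.4 and 58.5 in knockout cells, against 11.8 and 15.1 in parental cells. SEPT4 stood at 3.12 and 4.89 (+0.52) and was lower in knockout cells than in parental cells (-1.70).

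**Figure D4:**
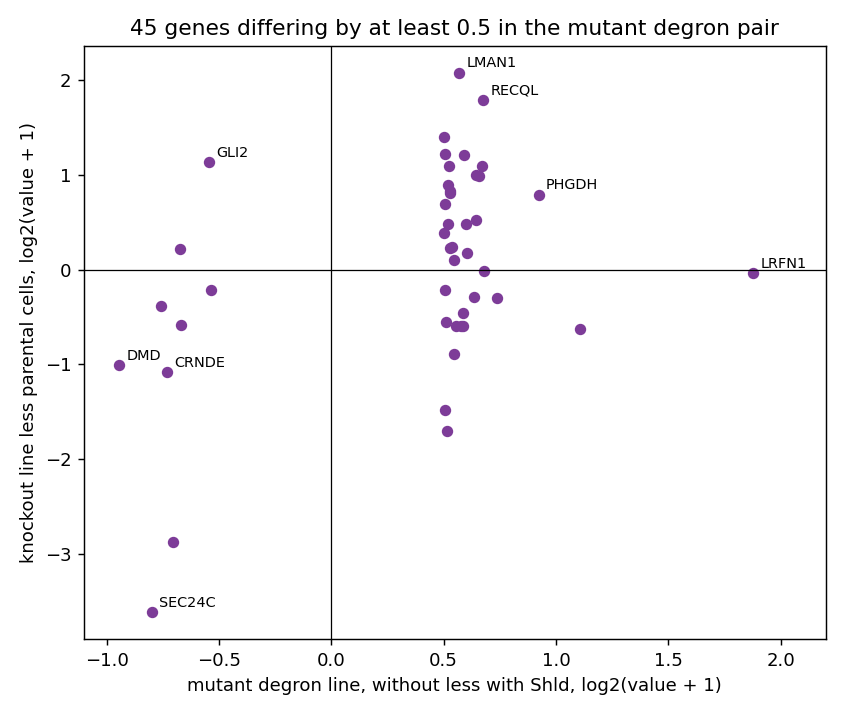
Difference without less with Shld in mutant degron cells (horizontal axis) against the difference of the knockout line less parental cells (vertical axis), both log2(value + 1), for the 45 genes of at least 0.5 in size on the horizontal axis and a value of at least 1 in all libraries, 1 point per gene. Of the 36 genes on the right 22 lie above 0, and of the 9 on the left 2 do.

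Genes with a reported splicing fault under SF3B1 mutation were examined as a list. Of 31 entries 27 were measured, and their median difference was +0.02 with 16 above 0, where all genes had a median of -0.01 and 47.2% above 0. The same list had a median of -0.08 in the parental pair (9 above 0) and -0.07 in the wildtype degron pair (6 above 0). Of the 27, 0 passed the test of withdrawal. DPH5, a diphthamide synthesis enzyme (15.4 and 22.5, +0.52), was among the members higher by at least 0.5, and CRNDE was lower. PPP2R5A, a regulatory subunit of protein phosphatase 2A, stood at 47.8 and 66.7 (+0.47), against 68.6 and 59.2 in parental cells and 86.2 and 53.8 in wildtype degron cells. PPOX, an enzyme of heme synthesis, stood at 10.7 and 14.2 (+0.38), and DLST at 51.8 and 65.2 (+0.33). MAP3K7, the kinase TAK1, stood at 10.0 and 12.2 (+0.26) and was higher in knockout cells than in parental cells (+0.91). BRD9, a subunit of a BAF complex, stood at 43.2 and 39.4 (-0.13), and TMEM14C, a mitochondrial protein needed for heme synthesis, at 299.8 and 300.2. A gene-level value can stay level while the splice site used changes, and the latter was not measured here.

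The splicing machinery showed small differences. Of 17 measured SF3a and SF3b subunits and U2 partners 4 were above 0, with a median of -0.07 (parental pair +0.05), and 0 passed. PUF60 stood at 3.52 and 8.73 (+1.11), but its parental values of 11.5 and 4.02 differed by more in the other direction. Of 26 SR proteins and hnRNPs, which select exons, 11 were above 0, with differences from -0.17 to +0.17. Of 12 nonsense-mediated decay factors 7 were above 0, and UPF3B stood at 7.41 and 9.84 (+0.37), against 6.93 and 4.75 in wildtype degron cells.

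Of 13 measured genes of serine synthesis and one-carbon metabolism 8 were above 0, with a median of +0.03, and PHGDH was the 1 member of at least 0.5 in size. SLC1A4, a neutral amino acid transporter, came next at 5.75 and 7.34 (+0.31). PSAT1, the next enzyme after PHGDH, stood at 73.0 and 75.3 (+0.04). SHMT2 stood at 154 and 155 (+0.01), and MTHFD2, a mitochondrial folate enzyme, at 100.4 and 88.7 (-0.18). In the integrated stress response, whose factor ATF4 drives several of these genes, 4 of 14 were above 0, with a median of -0.06 (parental pair +0.15, wildtype degron pair +0.24). DDIT3, a stress transcription factor, stood at 51.7 and 45.6 (-0.18).

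The lists furthest below 0 were those of protein folding and turnover, and none of their members passed the test. Of 21 measured endoplasmic reticulum (ER) chaperones and folding enzymes 2 were above 0, with a median of -0.16, where the parental pair had +0.34 with 20 above 0 and the wildtype degron pair +0.11 with 18 above 0. HSPA5, the ER chaperone BiP, stood at 314 with and 269 without Shld in mutant degron cells, and at 160 and 214 in parental cells. CALR, which folds glycoproteins, stood at 1279 and 1187, and at 579 and 767 in parental cells. The list's difference in the parental pair was thus larger than that in the mutant degron pair, and in the other direction. Of 18 cytosolic heat shock chaperones 4 were above 0 (median -0.14; parental pair +0.08, wildtype degron pair +0.13), with HSPH1 at 193 and 158 and HSP90AA1 at 1498 and 1273. Of 30 proteasome subunits 2 were above 0 (median -0.12; parental pair -0.04 with 14 above 0, wildtype degron pair +0.14 with 28 above 0), and PSMD12 stood at 96.1 and 78.4 (-0.29). With the length correction the 3 medians were -0.13, -0.12 and -0.14.

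The promoters of the ER list were searched for the element that genes of the unfolded protein response are best known for sharing, and the matches are shown for that reason. The ER stress response element was searched as CCAAT and CCACG with 9 bases of any kind between them, on both strands, in RefSeq promoters (GRCh38.p14, 250 bases before to 50 after the gene's start). It was present in 6 of 20 ER list members with a promoter (30%), namely HSPA5, CALR, CANX, PDIA6, CRELD2 and XBP1, and in 25 of 27305 genes (0.0916%). The promoters of 3 of them follow, with the match in capitals; in CALR it lies on the opposite strand.
HSPA5: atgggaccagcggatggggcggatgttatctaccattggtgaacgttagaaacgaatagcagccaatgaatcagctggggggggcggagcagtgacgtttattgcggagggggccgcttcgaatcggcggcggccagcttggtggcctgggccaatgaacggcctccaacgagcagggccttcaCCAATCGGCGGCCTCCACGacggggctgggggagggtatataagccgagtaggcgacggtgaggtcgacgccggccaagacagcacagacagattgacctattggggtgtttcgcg
CALR: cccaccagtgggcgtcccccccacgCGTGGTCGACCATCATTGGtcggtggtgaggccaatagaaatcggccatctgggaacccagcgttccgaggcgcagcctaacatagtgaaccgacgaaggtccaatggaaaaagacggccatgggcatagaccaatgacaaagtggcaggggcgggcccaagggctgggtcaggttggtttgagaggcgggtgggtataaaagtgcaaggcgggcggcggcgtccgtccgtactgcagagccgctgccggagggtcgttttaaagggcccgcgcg
PDIA6: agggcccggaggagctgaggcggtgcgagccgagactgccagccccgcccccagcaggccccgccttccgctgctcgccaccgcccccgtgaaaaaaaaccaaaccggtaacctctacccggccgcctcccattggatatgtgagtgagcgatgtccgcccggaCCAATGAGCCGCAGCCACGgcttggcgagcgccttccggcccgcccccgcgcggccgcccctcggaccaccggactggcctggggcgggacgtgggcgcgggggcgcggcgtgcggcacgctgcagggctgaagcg
They lie at chr9:125241294-125241593 (minus strand), chr19:12938359-12938658 (plus strand) and chr2:10812736-10813035 (minus strand). In the mutant degron pair HSPA5 differed by -0.22, CALR by -0.11 and PDIA6 by -0.12, and in the parental pair by +0.42, +0.41 and +0.37. The heat shock element, GAA, TTC and GAA with 2 bases of any kind between each, was present in 5 of 16 heat shock promoters (31.2%) and in 0.608% of all genes. Other elements were searched for other lists. The M-box, CATGTG, was in 9 of 15 melanocyte promoters (60%) and in 13.4% of all genes. The antioxidant type element was in 7 of 25 proteasome promoters (28%) and 16.1% of all genes. The sterol element was in 1 of 16 cholesterol promoters and 0.0586% of all genes. The amino acid response element was in 1 of 10 serine and 1 of 14 stress response promoters, and 1.22% of all genes. A match is a description of the sequence, not evidence that a factor bound.

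**Figure D5:**
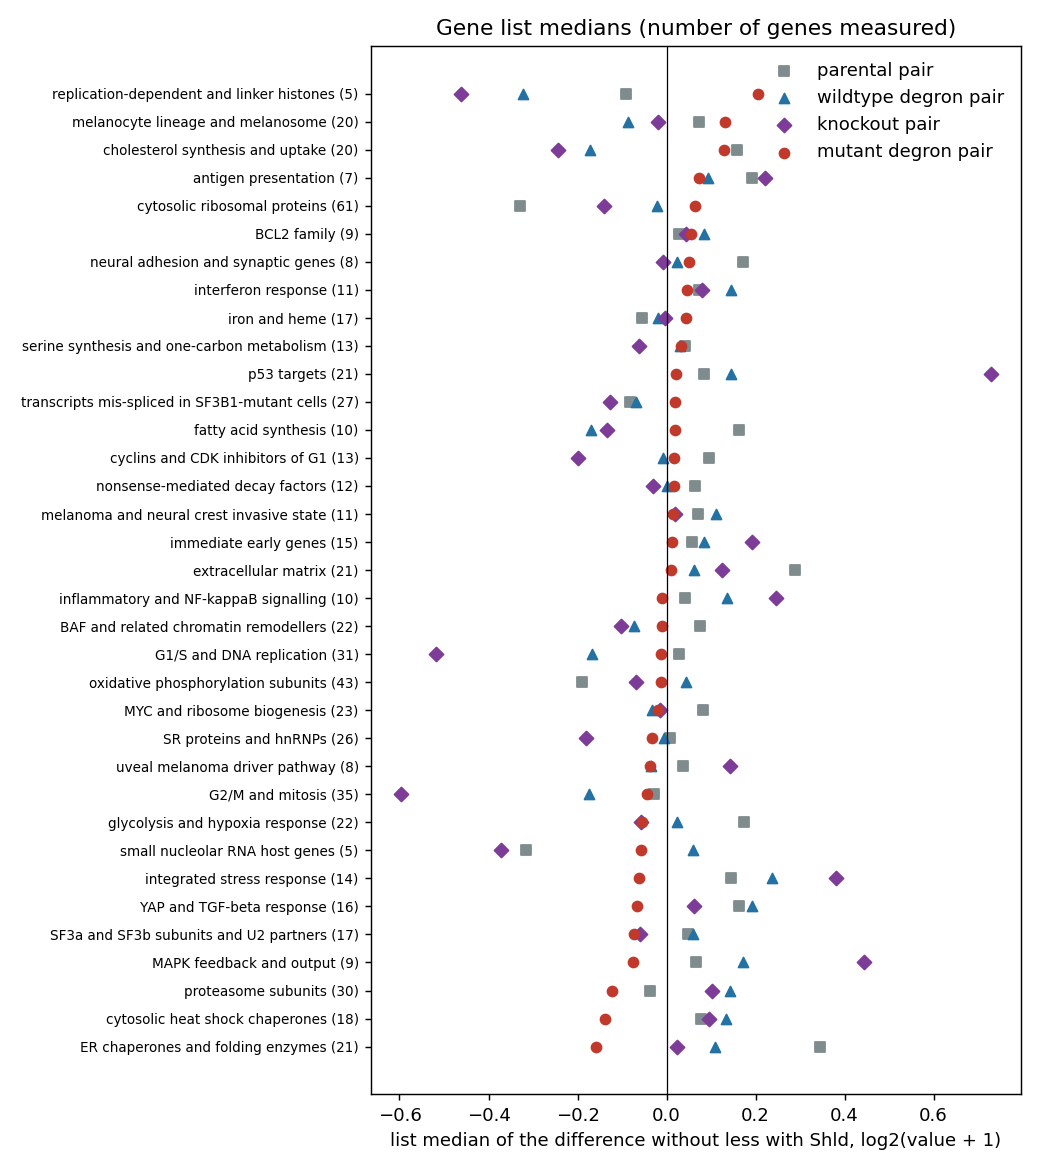
Median difference without less with Shld (log2(value + 1)) of the 35 gene lists with 5 or more measured members (number in parentheses), with 1 symbol for each pair of libraries, ordered by the mutant degron pair. In the mutant degron pair the medians run from -0.16 for ER chaperones to +0.21 for histones, and the p53 and cell cycle lists lie near 0 where the knockout pair does not.

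Above 0 stood the lists of pigment cell identity and sterol synthesis, again with 0 members past the test. Of 20 melanocyte lineage genes 19 were above 0, with a median of +0.13. The parental pair had +0.07 (12 above 0) and the wildtype degron pair -0.09 (7 above 0). PMEL, the fibril protein of the melanosome, stood at 2854 and 3643 (+0.35), TYRP1, a pigment enzyme, at 2908 and 3531 (+0.28), and TYR, the rate-limiting enzyme of melanin synthesis, at 157 and 194 (+0.30). PMEL was also higher without Shld in parental cells (+0.32), as was TYRP1 (3958 and 4133). Both were lower without Shld in knockout and wildtype degron cells. TYR was also higher without Shld in every other line, at 361 and 403 in parental cells and 127 and 161 in knockout cells. In wildtype degron cells TYR stood at 502 and 562. PMEL, TYRP1 and TYR all stood lower in mutant degron cells than in parental cells in both states. Of 20 genes of cholesterol synthesis and uptake 17 were above 0, with a median of +0.13, and the parental pair had +0.16 with 13 above 0. MVD, an enzyme of the mevalonate part of the pathway, stood at 22.1 and 27.0 (+0.28), against 36.2 and 25.8 in wildtype degron cells, where the list's median was -0.17. In bulk RNA more cells of a kind and more RNA per cell cannot be told apart. Of 61 cytosolic ribosomal protein genes 52 were above 0, by little (median +0.06), where the parental pair had 1 of 61 above 0 (median -0.33). With quantile normalization the ribosomal median was 0, with 29 of 61 above 0.

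Cell cycle and p53 genes differed little on withdrawal of the mutant protein. Of 31 G1/S and replication genes 13 were above 0 (median -0.01), and of 35 genes of G2/M and mitosis 11 were (median -0.04), where the knockout pair had medians of -0.52 and -0.60. MKI67, a proliferation marker, stood at 45.9 and 35.9 (-0.35), while KIF20A, a mitotic kinesin, stood at 51.6 and 65.2 (+0.33). Of 21 p53 targets 12 were above 0, with a median of +0.02, and DDB2, a DNA repair factor, had the largest difference, at 15.4 and 20.3 (+0.37). For knockout cells the column names give a degron on wildtype SF3B1 and 4 days without Shld. What lies behind differences within the knockout pair therefore cannot be told apart. CDKN1A, the p53-driven inhibitor of cyclin-dependent kinases, stood at 94.3 and 96.5 in mutant degron cells and at 88.9 and 296 in knockout cells. That difference between lines passed at -1.69 ± 0.27 (limma, adjusted p = 0.0034). In all, 39 genes (0.453%) differed in response between the mutant degron and knockout lines, 24 higher and 15 lower in mutant degron cells. HIST1H1C differed by +1.80 ± 0.24 (limma, adjusted p = 0.00049), with 27.6 and 10.4 in knockout cells.

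Among the other lists with 5 or more measured members, most medians lay close to 0 in the mutant degron pair. Of 17 iron and heme genes 12 were above 0 (median +0.04), PPOX among them. Of 5 histone genes 4 were above 0 (median +0.21), with HIST1H1C at +0.48. Of 22 chromatin remodellers 10 were above 0 (median -0.01), with SMARCA1 at +0.47. Oxidative phosphorylation (18 of 43 above 0, median -0.01), extracellular matrix (11 of 21, +0.01), interferon response (7 of 11, +0.05) and immediate early genes (9 of 15, +0.01) were near 0. Glycolysis and hypoxia genes had 5 of 22 above 0 (median -0.06; parental pair +0.17 with 21 above 0), and genes of the YAP and TGF-beta response 3 of 16 (median -0.07; parental pair +0.16).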

How the data were processed

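RNA was sequenced from 8 MEL202 libraries, 1 for each of 4 lines with and without Shld, with paired reads of 100 bases per the labels' protocols. The authors deposited 1 table of FPKM-type values for 32087 loci, rescaled in each library to a 75th percentile of 10. That FPKM was the input is inferred from the values and from Cufflinks being named. TopHat, Cufflinks and the hg19 build are named, per the submitters' processing notes. Versions, annotation and strand: not given in the sources used here. Columns were matched to samples by name. Named loci whose mean over the 8 libraries reached 5 were kept, 146 small RNA loci and 63 secondary loci of a symbol were left out, and 8601 genes remained, 161 of them merged loci with several symbols.

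Values were analysed as log2(value + 1) with limma 3.58.1 in R 4.3.3 (trend, Benjamini-Hochberg). Both parental libraries shared a mean, every other library had its own coefficient, and a lone library was assumed to vary like the parental pair. Separate cultures are not stated, so p-values reflect only how these libraries spread, which may be technical. The fit was tested on simulated data. Text genes are SF3B1, genes past the test, the 15 largest differences each way among genes with a value of at least 1 in all libraries and a parental difference less than 0.5 times as large, list members of at least 0.5 in size and up to 4 per list with the largest differences, and the 5 largest each way in contrasts between lines. Genes named outside that rule (among them HSPA5, CALR, PSAT1, SHMT2, BRD9, TMEM14C, HACL1, RTF1, LMAN1 and SEPT4, and the rest of the contrast between degron lines) were chosen after their values were seen. A result for 1 gene and some sequences are not reported here, and that gene stays in the counts. The members and the 38 lists were chosen with earlier results of these data known. Alternatives were other scalings, pseudocounts, level filters, a spread that includes the knockout pair, no trend, and a length correction in 40 length bins, the last chosen after seeing the data. Lengths and acceptors came from GENCODE, promoters from RefSeq. Coordinates are GRCh38, not the build of the table, and only the reference was read there. Tables were handled in Python 3.11.15 with pandas 2.3.3.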

Additional observations from a re-analysis of the deposited data

Results flagged for a closer look

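These results are differences in response between 2 lines that passed the limma test (log2(value + 1), Benjamini-Hochberg 0.05). In the mutant degron line less wildtype degron cells, DMD differed by -1.60, LOC390660 by -1.60, GLI2 by -1.59 and RFTN1 by -1.28. In the same contrast HLA-C differed by +4.98, NSUN4 by +2.84, PHGDH by +1.81, and HIST1H1C by +1.79. DMD stood at 12.3 and 5.91 with and without Shld in mutant degron cells and at 10.7 and 17.4 in wildtype degron cells. RFTN1, a lipid raft protein, stood at 6.85 and 4.84 in mutant degron cells and at 3.46 and 7.03 in wildtype degron cells.

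In the mutant degron line less the knockout line, GDF15 differed by -1.78, CDKN1A by -1.69, DSP by -1.54, SEL1L3 by -1.52 and CHAC1 by -1.45. In that contrast HLA-C differed by +3.99, LRFN1 by +2.25, HIST1H1C by +1.80, C18orf56 by +1.56 and PHGDH by +1.49. GDF15, a stress-induced cytokine, stood at 810 and 772 in mutant degron cells and at 202 and 667 in knockout cells. CHAC1, a glutathione-degrading enzyme induced by ATF4, stood at 15.8 and 15.1 in mutant degron cells and at 10.7 and 29.6 in knockout cells.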

How the results depend on the processing

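No paired analysis was possible because each group had 1 library, and leaving out a library was not possible either: without 1 mutant degron library there is no comparison, and without 1 parental library no residual degree of freedom. Counts below are given as higher and lower; contrasts are the mutant degron response less that of the wildtype degron line, then less that of the knockout line. Differences of at least 0.5 (39 and 10) became 60 and 18 with a pseudocount of 0.1, 13 and 5 with a pseudocount of 5, 107 and 44 with a mean of at least 1, 9 and 2 with a mean of at least 20, and 157 and 90 with no level filter. At 2-fold they were 4 and 1. The lower count was 24 with quantile normalization and 20 with small RNA and secondary loci kept. Genes past limma for withdrawal (3 and 1) were 0 and 0 with quantile normalization, with no level filter, with the spread from parental and knockout pairs, and with the length correction, where 166, 1009, 58 and 124 had an unadjusted p below 0.05. They were 1 and 2 with a mean of at least 20, 1 and 4 with small RNA and secondary loci kept, 1 higher with median scaling, 0 lower with a pseudocount of 0.1 and 3 and 3 with a mean of at least 1, where LOC390660 was the 1 gene shared with the 4. The first contrast (17 and 4) gave 3 and 0 with median scaling, quantile normalization and the length correction, 5 and 0 with a mean of at least 1, 10 and 0 with a mean of at least 20, 6 and 10 with small RNA and secondary loci kept, and 3 and 2 with no trend. It gave 2 lower with a pseudocount of 0.1, and 0 and 0 with no level filter (1297 unadjusted) and with the spread from parental and knockout pairs (147 unadjusted). The second contrast (24 and 15) gave 13 and 5 with median scaling, 3 and 3 with quantile normalization, 7 and 7 with a mean of at least 1, 5 and 5 with small RNA and secondary loci kept, 6 and 8 with no trend, 1 and 1 with the length correction, and 0 and 0 with no level filter (1641 unadjusted). Of the list medians under alternatives, 339 lay within 0.1 of the reported value and 3 moved further, those of the fibroblast, the immune and the endothelial and epithelial markers. Most medians were below 0.1 in size, so this count does not show that their signs held. The p53 median, for 1, went from +0.021 to -0.006 with the length correction. Each state has 1 library, and the depth is unknown. The parental pair gives 1 residual degree of freedom, to which the main fit adds 23.6 pooled over genes. Small differences could therefore not be told from the spread between libraries.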
